A study of Homo sapiens with 6 samples.

Results

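Regulators of DNA methylation and chromatin were examined in LA1-55n, a human neuroblastoma cell line, after knockdown of glycine decarboxylase (GLDC). Members were taken by gene symbol: all measured genes whose names place them in the UHRF, DNMT, MBD, TET, KDM, KMT, HDAC, SMARC, CBX, EZH, CHD, ARID or BRD families. The rule gave 83 of 14779 measured genes, in 12 of the 13 families. SMARC genes, UHRF2, TET3, MBD3 and KMT2A, among others, had no named probe set and are not analysed here. A symbol prefix is not a function: CHD1L and the 2 pseudogenes BRD7P3 and CBX3P2 are members by name, and 3 opposite-strand transcripts (KDM4A-AS1, KDM7A-DT and KMT2E-AS1) were left out.

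Both groups carried a doxycycline-inducible hairpin (teton), against GFP in the control cells (shGFP) and against GLDC in the others (shGLDC99). Doxycycline at 0.5 µg/ml was given to both for 7 days. RNA of 3 samples per group was hybridised to Affymetrix Human Gene 2.0 ST arrays, 1 array per sample, lettered a, b and c. The samples are called independent, but whether they were separate cultures is not said, and the p-values then reflect no more than the spread among them, which may be technical. With 1 hairpin against GLDC and no uninduced cells analysed here, an effect of GLDC loss and an off-target effect of shGLDC99 cannot be told apart.

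DNA methylation is copied at the replication fork, where UHRF1 recognises half-methylated DNA and brings in the methyltransferase DNMT1. DNMT3A and DNMT3B add new methyl marks, TET enzymes oxidise them, and MBD proteins bind methylated DNA. Polycomb complexes silence genes through the methyltransferases EZH2 and EZH1, heterochromatin protein CBX1, CBX3 and CBX5 read the mark of constitutive heterochromatin, and KDM demethylases, KMT methyltransferases and HDAC deacetylases write and erase histone marks. CHD, ARID and BRD proteins move nucleosomes or read histone tails. Glycine cleavage feeds the one-carbon pool from which cells draw methyl groups, and neuroblastomas often carry alterations of chromatin genes.

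Values are the deposited log2 intensities, and differences are shGLDC99 minus shGFP on that scale. A gene is said to have risen or fallen, or to be called, where its limma p-value was under 0.05 after Benjamini-Hochberg adjustment across the 14779 genes. GLDC itself was 7.85, 7.90 and 7.81 in the shGFP samples and 5.98, 5.65 and 5.93 in the shGLDC99 samples, so the targeted transcript was lower in all 3 arrays labelled as its knockdown (difference -2.0, SE 0.10, limma adjusted p = 0.00101). Arrays of 1 group correlated at 0.993 to 0.994. The median gene stood at 5.09, a rough guide to brightness, because no detection call accompanies the values. Of 16 measured adrenergic neuroblastoma markers 11 were at that level or brighter, including GATA3, HAND2 and PHOX2A, against 0 of 4 Schwann cell, 0 of 7 epithelial, 1 of 5 endothelial, 1 of 3 leukocyte and 2 of 4 fibroblast markers (THY1 and FBLN1). Among the adrenergic markers 3 fell, ISL1 (-1.09), GATA2 (-0.56) and GATA3 (-0.48), and 3 rose, RET (0.65), CHGB (0.41) and GAP43 (0.41). The 37.5% called compares with 8.52% of all genes. The mean level of the 16 per array, which does not show such opposite changes, was 6.47 to 6.53 in shGFP and 6.44 to 6.56 in shGLDC99 cells. Among the 4 fibroblast markers 1 rose, LUM, by 0.52 to a level still below the median gene, and the mean of the 4 was 4.28 to 4.35 in shGFP and 4.40 to 4.49 in shGLDC99 cells. The part of these markers in the results was not tested.

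More chromatin members fell than rose in shGLDC99 cells. Of 83 members, 11 fell (13.3%) and 2 rose (2.41%), while 4.80% of all genes fell and 3.72% rose, or 8.52% called in all. UHRF1, HDAC1, DNMT1, EZH2, DNMT3B, MBD2, CBX3, MBD4, MBD1, KDM6A and CBX5 fell. CHD5 and KDM7A rose. The groups of 3 arrays did not overlap for 39 members (47%; 30 lower and 9 higher), against 30.8% of all genes; the 30 lower ones are 36.1% of members, against 16.3% of all genes. The median member difference was -0.07, against -0.01 over all genes. In RNA from a whole culture, fewer cells with a transcript and less transcript per cell cannot be told apart.

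The members were brighter than most genes. Of the 83, 67 were no dimmer than the median gene, and all 13 calls were among these. CHD5 is in this set by its mean over all 6 arrays, while its shGFP mean of 4.99 is below the median gene. In total 19.4% of these brighter members were called, against 14.1% of brighter genes. By direction, 16.4% of the brighter members fell and 2.99% rose, against 8.25% and 5.86% of brighter genes. The split does not match the 2 sets in brightness: the median level was 7.49 for the brighter members and 6.74 for the brighter genes. Of the 16 dimmer members, limma called 0, against 2.92% of dimmer genes. Groups that did not overlap were also more frequent among brighter genes. They were found for 55.2% of the brighter members, against 46.8% of brighter genes and 14.9% of dimmer genes. Without overlap, 44.8% of the brighter members were lower and 10.4% higher, against 25.4% and 21.4% of brighter genes.

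**Figure D1:**
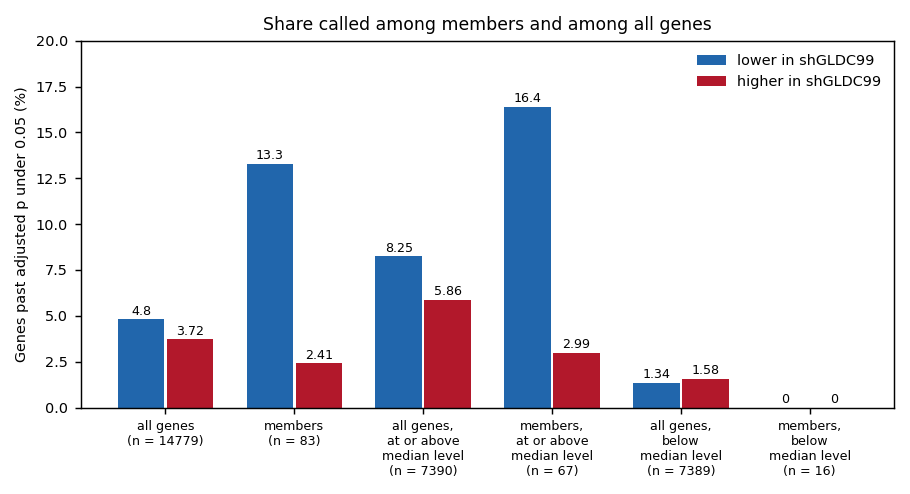
Percentage of genes past adjusted p under 0.05, lower (blue) or higher (red) in shGLDC99 cells, for all genes and for the chromatin members, in total and split at the median gene level. The members' blue bar is 13.3% against 4.80% for all genes, and 16.4% against 8.25% among the brighter genes.

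The number of calls depends on having all arrays. Members that fell numbered 5 without shGFP array a, 3 without shGFP b, 3 without shGFP c, 3 without shGLDC99 a, 4 without shGLDC99 b and 4 without shGLDC99 c, and 1 rose in each of these fits. Over all genes, 3.12% to 3.69% were called in the same fits, against 8.52% with all arrays. UHRF1, HDAC1, DNMT1 and CHD5 were called in all 6 of them, and the other called members in 0 to 2 of them.

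Transcripts of the 2 proteins that copy DNA methylation at the fork both fell. UHRF1, the reader of half-methylated DNA, was 7.61, 7.63 and 7.62 in shGFP cells and 6.86, 6.84 and 6.72 in shGLDC99 cells. Every shGLDC99 array lay at least 0.74 below every shGFP array. The difference was -0.81 ± 0.0662 (SE), or 1.76-fold lower (limma adjusted p = 0.00283), the largest change of any member in either direction; it ranked 57 among the falls of all genes. DNMT1, the maintenance methyltransferase, was 8.58, 8.62 and 8.58 against 8.16, 8.11 and 8.11. It fell by 0.46 ± 0.0588 (SE), or 1.38-fold lower (limma adjusted p = 0.00885).

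Of the transcripts for enzymes that place new methyl marks, 1 of 2 fell. DNMT3B was 6.09, 6.18 and 6.09 in shGFP cells and 5.65, 5.72 and 5.45 in shGLDC99 cells, and fell by 0.51 ± 0.0881 (SE; limma adjusted p = 0.020). DNMT3A stood at 6.79, 6.85 and 6.88 against 6.92, 6.83 and 6.90, with overlapping groups and a difference of 0.04 (95% interval -0.11 to 0.19). DNMT3L, a catalytically inactive partner of germ cells, was dim and differed by 0.01. Measured within each array, DNMT1 minus DNMT3A went from a mean of 1.75 to 1.25, and DNMT3B minus DNMT3A from -0.72 to -1.27. Both sets of arrays stood apart (exact two-sided permutation p = 0.10 each, the smallest that 3 against 3 allows; adjusted p = 0.15 over the 15 pairs compared).

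Of 9 measured MBD genes, MBD1, MBD2 and MBD4 fell and 0 rose (33.3% called, against 8.52% of all genes). MBD2, which joins the NuRD deacetylase complex to methylated DNA, was 7.90, 7.90 and 7.78 against 7.54, 7.40 and 7.48, a fall of 0.39 ± 0.0713 (SE; limma adjusted p = 0.0241). MBD4, a glycosylase that repairs deaminated methylcytosine, fell by 0.36, from 7.50, 7.69 and 7.63 to 7.25, 7.29 and 7.21 (limma adjusted p = 0.0317). MBD1, a transcriptional repressor, fell by 0.30, from 7.31, 7.40 and 7.42 to 7.06, 7.05 and 7.11 (limma adjusted p = 0.0358). In each of the 3 genes the groups did not overlap. MBD5 (-0.07) and MBD6 (-0.29, with an SD of 0.193 in shGFP and 0.192 in shGLDC99 cells) were not past the threshold. The 4 MBD3-like genes differed by -0.26 to 0.04 at levels below the median gene, and MBD3L2 and MBD3L3 are near-identical copies whose probe sets may not separate them.

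On the erasing side, TET1 was 9.08, 9.04 and 9.14 against 8.90, 8.86 and 8.92. Its groups did not overlap, and its difference of -0.19 was not past the threshold (limma adjusted p = 0.109). TET2 differed by -0.06, with overlapping groups. Over the 12 measured genes of UHRF, DNMT, MBD1 to MBD6 and TET, 6 fell and 0 rose, with a median of -0.30. By comparison, 4.80% of all genes fell, and 8.25% of genes at or above the median gene level. This set leaves out the 4 MBD3-like genes, of which 0 fell and 0 rose (median -0.01). It keeps DNMT3L, which also stood below the median gene level. Other genes tied to DNA methylation, from a list outside the name rule, had a median of 0.02. Of 15 measured, 2 fell and 0 rose (13.3% called, against 8.52% of all genes). These 2 were PCNA, the replication clamp (-0.51), and CXXC1, which binds unmethylated CpG sites (-0.60). Of 11 enzymes of the methyl donor cycle 1 fell, methionine synthase MTR (-0.28), and 0 rose; the 9.09% called is near the 8.52% of all genes.

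**Figure D2:**
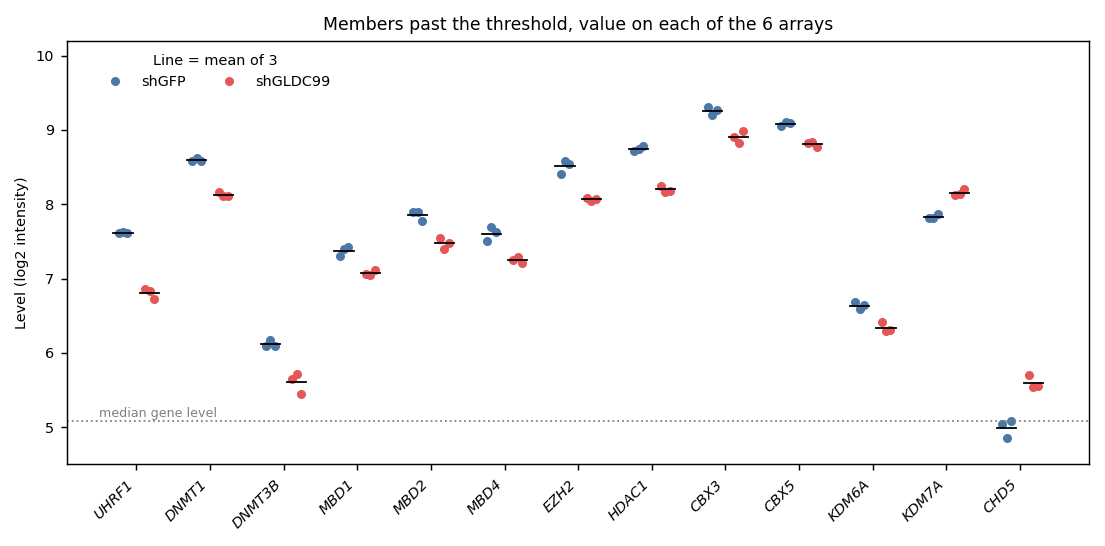
Deposited log2 intensity of the 13 called members on each array, shGFP in blue and shGLDC99 in red, with black lines at the mean of 3 and a dotted line at the median gene level of 5.09. No member shown has overlapping groups, and CHD5 and KDM7A lie higher in shGLDC99 cells while the other 11 lie lower.

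Most of the measured proliferation genes fell as well. Of 37, among them MCM5 (-0.77), GINS4 (-0.73), MCM10 (-0.54) and GINS2 (-0.71), 25 fell (67.6%) and 0 rose, with a median of -0.40. Across all genes 4.80% fell. All 37 were at or above the median gene level, where 8.25% of genes fell. PCNA and MCM2 belong to this list and to another one described here. The mean level of the 37 genes was 8.15 to 8.18 on the shGFP arrays and 7.76 to 7.80 on the shGLDC99 arrays. Their part in the fall of UHRF1, DNMT1 and other members was not tested.

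Promoters were searched for letters of the motif of E2F factors, which drive replication genes. RefSeq promoter sequences (GRCh38.p14, 250 bases before to 50 after each annotated start) were found for 72 of 83 members and 12 of 13 called ones. The searched letters were TTTCCCGC, TTTGGCGC, TTTCGCGC and TTTGCCGC on either strand. No matches in a member's promoter overlapped. Of the 11 members that fell, 4 (36.4%) had a promoter with a match, against 3 of the 60 members not called, 67 of 587 genes that fell (11.4%) and 5.38% of all tested genes with a promoter. Over all windows in the table, of all genes, 3.31% held a match. Genes with more annotated starts had more windows to match. The mitotic CHR letters TTTGAA, on either strand, were in 1 of the 11 (MBD2), against 15.3% of all tested genes. A match describes the sequence and does not show that a factor binds there.

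The promoters of the 4 members that fell and hold a match are shown so that the letters can be read in place, together with that of HDAC1, which fell without one. They are UHRF1 (chr19:4909251-4909550, + strand, the first of 3 annotated starts), DNMT1 (chr19:10194904-10195203, - strand), EZH2 (chr7:148884242-148884541, - strand, the first of 2 listed), CBX3 (chr7:26201193-26201492, + strand) and HDAC1 (chr1:32291833-32292132, + strand). Each reads 5′ to 3′ on the gene's own strand, and capitals mark the match.
UHRF1: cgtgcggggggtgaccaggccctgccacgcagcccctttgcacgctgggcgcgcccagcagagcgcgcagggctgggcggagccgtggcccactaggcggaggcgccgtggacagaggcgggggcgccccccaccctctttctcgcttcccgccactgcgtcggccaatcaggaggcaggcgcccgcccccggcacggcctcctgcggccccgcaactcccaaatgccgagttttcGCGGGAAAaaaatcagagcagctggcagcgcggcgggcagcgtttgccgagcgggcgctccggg
DNMT1: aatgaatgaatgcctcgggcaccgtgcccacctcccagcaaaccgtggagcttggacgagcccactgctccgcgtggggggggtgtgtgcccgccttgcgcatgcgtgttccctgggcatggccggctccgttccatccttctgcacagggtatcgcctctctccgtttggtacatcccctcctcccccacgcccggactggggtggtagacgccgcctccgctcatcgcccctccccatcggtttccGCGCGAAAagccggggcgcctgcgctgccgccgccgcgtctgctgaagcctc
EZH2: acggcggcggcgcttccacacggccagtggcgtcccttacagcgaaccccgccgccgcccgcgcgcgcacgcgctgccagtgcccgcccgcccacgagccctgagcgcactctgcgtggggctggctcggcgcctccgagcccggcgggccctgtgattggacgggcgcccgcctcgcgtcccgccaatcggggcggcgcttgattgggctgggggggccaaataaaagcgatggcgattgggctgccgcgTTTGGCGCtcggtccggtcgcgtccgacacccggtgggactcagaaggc
CBX3: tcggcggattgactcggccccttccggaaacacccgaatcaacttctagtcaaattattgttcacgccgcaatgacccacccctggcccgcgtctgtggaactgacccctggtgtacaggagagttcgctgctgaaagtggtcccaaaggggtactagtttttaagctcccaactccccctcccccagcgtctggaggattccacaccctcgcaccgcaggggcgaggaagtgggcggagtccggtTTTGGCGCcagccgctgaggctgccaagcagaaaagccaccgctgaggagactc
HDAC1: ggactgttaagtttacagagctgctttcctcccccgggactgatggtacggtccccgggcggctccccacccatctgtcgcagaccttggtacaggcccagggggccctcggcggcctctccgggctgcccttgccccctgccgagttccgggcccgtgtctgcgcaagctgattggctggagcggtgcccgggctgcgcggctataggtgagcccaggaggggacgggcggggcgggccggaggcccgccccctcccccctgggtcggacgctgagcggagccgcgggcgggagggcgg

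Counting the start base as 0, the match spans -14 to -7 in UHRF1 and -2 to 5 in DNMT1, both read on the opposite strand, and 1 to 8 in EZH2 and -4 to 3 in CBX3, read on the gene's strand. A second UHRF1 start, at chr19:4909894-4910193, holds another match from -160 to -153. Among members that were not called, BRD7 held a match from -25 to -18, EZH1 from -115 to -108, and KDM1B 2 matches farther from the start, so a match was not particular to members that fell.

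Of the polycomb methyltransferases, EZH2 fell and EZH1 did not pass the threshold. EZH2, the catalytic subunit of polycomb repressive complexes in dividing cells, was 8.41, 8.58 and 8.54 in shGFP cells and 8.09, 8.05 and 8.07 in shGLDC99 cells. It fell by 0.44 ± 0.0695 (SE; limma adjusted p = 0.0153). EZH1, its relative in non-dividing cells, was 7.36, 7.45 and 7.42 against 7.65, 7.55 and 7.50, which was higher in all 3 arrays but not past the threshold (0.15, limma adjusted p = 0.240). EZH2 minus EZH1 within an array was 1.04, 1.12 and 1.11 and then 0.44, 0.50 and 0.57, a change of -0.59 with groups that did not overlap (exact permutation p = 0.10; adjusted p = 0.15). Of 32 measured polycomb and heterochromatin genes outside the name rule, 5 fell (15.6%, against 4.80% of all genes) and 0 rose. Of the 32, 31 were at or above the median gene level, where 8.25% of genes fell and 14.1% were called. Those that fell included lamin B1 (LMNB1, -0.47), the methyltransferase EHMT2 (-0.47), the corepressor TRIM28 (-0.47) and PCGF2 (-0.39). ASXL3 (-0.59) also fell and was named after its value was seen.

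Of the 3 heterochromatin readers CBX3 and CBX5 fell. CBX3 was 9.31, 9.20 and 9.27 against 8.91, 8.82 and 8.98, and fell by 0.36 ± 0.0709 (SE; limma adjusted p = 0.0298). CBX5 was 9.05, 9.11 and 9.09 against 8.83, 8.84 and 8.77, and fell by 0.26 ± 0.0608 (SE; limma adjusted p = 0.0458), the call nearest the threshold. CBX1 differed by -0.25 without overlap (limma adjusted p = 0.0579), close to CBX5: their within-array difference changed by 0.02 with overlapping groups. The polycomb members CBX2 (-0.37), CBX6 (-0.18) and CBX7 (-0.05) were not past the threshold, and CBX2 stood at 5.75 on shGLDC99 array a against 6.29 and 6.09 on b and c. CBX3P2, a pseudogene of CBX3 with dim values, differed by 0.08; whether its probes separate it from CBX3 was not tested.

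Of 19 KDM genes, 1 fell and 1 rose, and the family median was -0.03. The 10.5% called is near the 8.52% of all genes. KDM6A, which removes the polycomb mark, was 6.68, 6.59 and 6.64 against 6.42, 6.29 and 6.31, a fall of 0.30 ± 0.0681 (SE; limma adjusted p = 0.0450). KDM6B, which acts on the same mark, differed by 0.06, and KDM6A minus KDM6B changed by -0.36 within arrays, without overlap. KDM7A, a demethylase of repressive marks, was 7.81, 7.81 and 7.87 against 8.13, 8.14 and 8.20, and rose by 0.32 ± 0.0605 (SE; limma adjusted p = 0.0250). The divergent transcript at its promoter, KDM7A-DT, differed by 0.06 (limma adjusted p = 0.811). KDM1A, the demethylase of the REST corepressor complex, was lower on all 3 arrays by 0.13 without passing the threshold (limma adjusted p = 0.237). The Y-linked member KDM5D is counted among the 19, with no value given, and was not called.

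In the KMT family limma called 0. Its 6 measured genes differed by -0.14 to 0.17, and KMT2C, which marks enhancers, stood at 9.69, 9.69 and 9.68 against 9.75, 9.77 and 9.73. Replicates of KMT2C were so close that its groups did not overlap at a difference of 0.07 (95% interval -0.07 to 0.20). Of 35 other histone methyltransferases and demethylases 4 fell and 2 rose (17.1% called, against 8.52% of all genes). Of the 35, 30 were at or above the median gene level, where 14.1% of genes were called. The arginine methyltransferase CARM1 fell by 0.65, the KMT2 partner MEN1 by 0.44 and the methyltransferase NSD2 by 0.38, and SMYD2 rose by 0.36. PRMT6 (-0.36) also fell and the corepressor HR (0.40) also rose; these 2 were named after their values were seen.

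**Figure D3:**
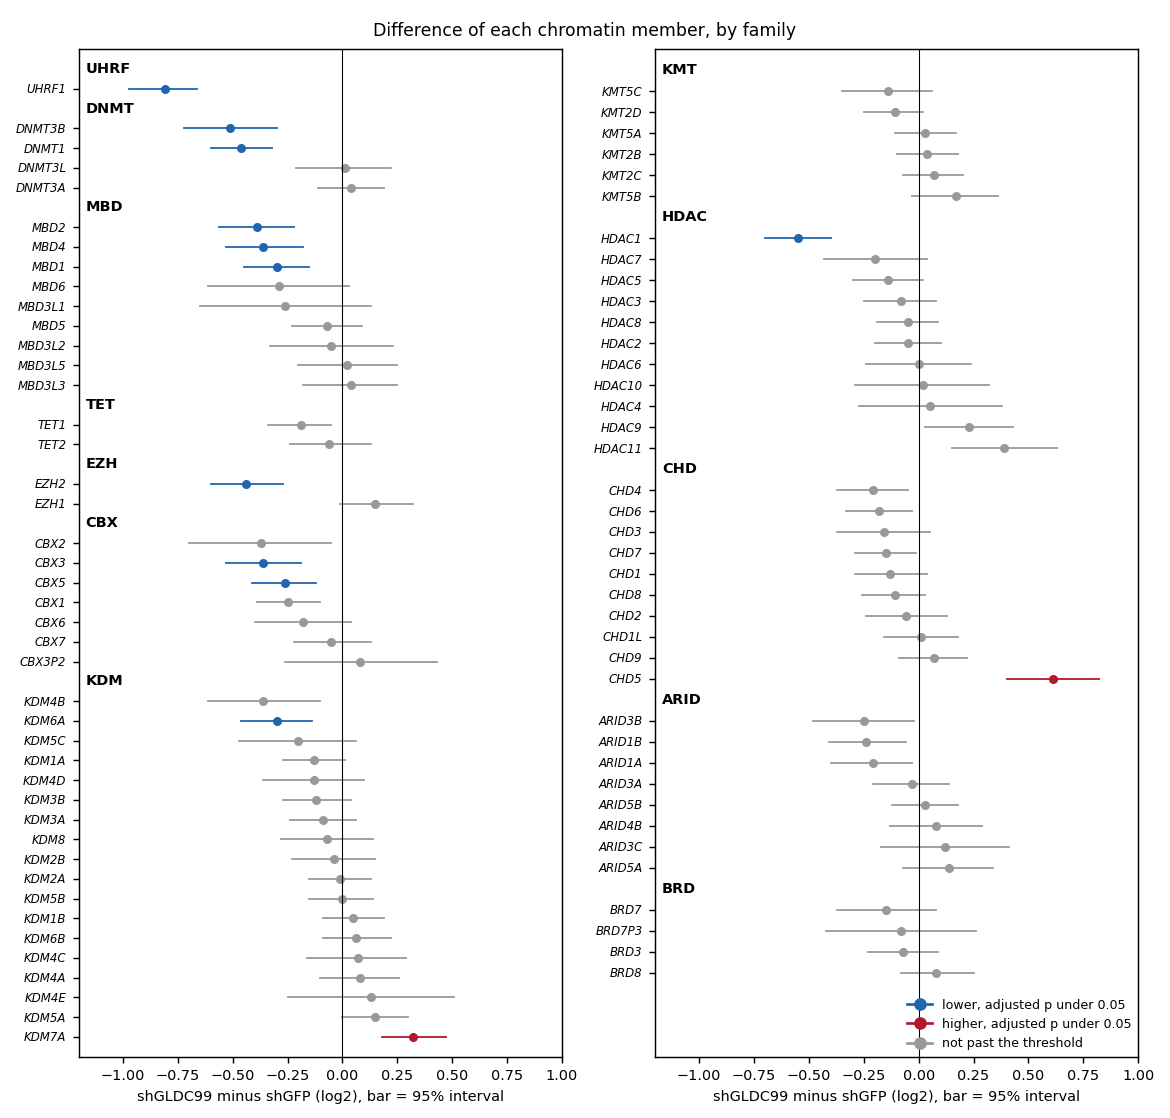
Difference of each member with values shown (log2, shGLDC99 minus shGFP), by family, with its 95% interval from limma. Blue members fell and red members rose at adjusted p under 0.05. The blue points number 3 in MBD, 2 each in DNMT and CBX, and 1 each in UHRF, EZH, HDAC and KDM, and the red points are KDM7A and CHD5.

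Of 11 histone deacetylase genes, 1 fell (9.09% called, near the 8.52% of all genes), HDAC1. It was 8.71, 8.75 and 8.78 in shGFP cells and 8.25, 8.17 and 8.18 in shGLDC99 cells, with a gap of 0.46 between the groups. The difference was -0.55 ± 0.0618 (SE), or 1.46-fold lower (limma adjusted p = 0.00660). Its close relative HDAC2, found in the same complexes, was 8.28, 8.29 and 8.26 against 8.29, 8.21 and 8.17, a difference of -0.05 with overlapping groups (95% interval -0.20 to 0.10). HDAC1 minus HDAC2 went from 0.43, 0.46 and 0.52 to -0.04, -0.05 and 0.01, a change of -0.50 (exact permutation p = 0.10; adjusted p = 0.15).

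The other deacetylases were not past the threshold. HDAC3 (-0.08) and HDAC8 (-0.05), also of class I, were lower by little. The 6 class II enzymes differed by -0.20 to 0.23, and the 2 probe sets of HDAC4 gave 0.05 and 0.14. HDAC11 differed by 0.39, from 4.01, 4.25 and 4.30 to 4.47, 4.68 and 4.58, without overlap (limma adjusted p = 0.0618) and below the median gene level. Of 16 partners in deacetylase complexes, 3 fell (18.8%, against 4.80% of all genes) and 0 rose. All 16 were at or above the median gene level, where 8.25% of genes fell and 14.1% were called. The 3 were REST, the repressor of neuronal genes (-1.39), its corepressor RCOR2 (-0.36) and the NuRD subunit GATAD2A (-0.37). Of 20 acetyltransferases and sirtuins 2 fell, the deacetylase SIRT1 (-0.70) and the coactivator NCOA2 (-0.33). Another 2 rose, the acetyltransferase KAT2B (0.77) and the mitochondrial SIRT5 (0.46). Over all genes 8.52% were called in either direction. Of the 20, 19 were at or above the median gene level, where 14.1% of genes were called.

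Of 10 CHD genes, CHD5 alone was called (10.0%, near the 8.52% of all genes). CHD5, a neuronal nucleosome remodeller and candidate tumour suppressor in neuroblastoma, was 5.04, 4.85 and 5.09 in shGFP cells and 5.70, 5.54 and 5.56 in shGLDC99 cells. It rose by 0.61 ± 0.0887 (SE), or 1.52-fold (limma adjusted p = 0.0117). The shGFP mean of 4.99 lies just below the median gene level and is not shown to exceed background, so the size of the rise is uncertain. CHD4 and CHD3, the remodellers of the NuRD complex, differed by -0.21 and -0.16, neither past the threshold and both without overlap. Within arrays, CHD4 minus CHD5 changed by -0.82 and CHD3 minus CHD5 by -0.77 (exact permutation p = 0.10 each; adjusted p = 0.15). Of the other 7 CHD genes, CHD1, CHD6, CHD7 and CHD8 differed by -0.18 to -0.11 without overlap, and limma called 0. In the family 70.0% of genes had groups that did not overlap. The share was 30.8% of all genes and 46.8% of genes at or above the median gene level.

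**Figure D4:**
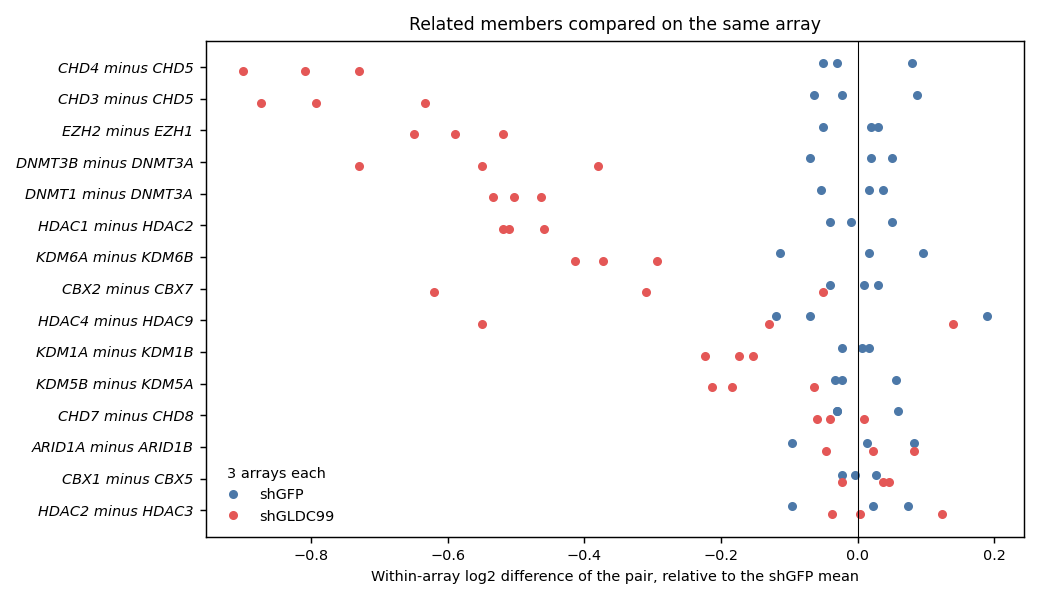
Within-array log2 difference of 15 pairs of related members, each set to 0 at the mean of its shGFP arrays, with 3 arrays per group in blue (shGFP) and red (shGLDC99). In 10 pairs the groups do not overlap, among them CHD4 minus CHD5 (-0.82, a size made uncertain by the dim CHD5 in shGFP cells) and EZH2 minus EZH1 (-0.59), whereas CBX1 minus CBX5 and ARID1A minus ARID1B stay near 0 (0.02 each).

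The BAF subunits ARID1A and ARID1B, the DNA-binding components of the SWI/SNF remodeller, differed by -0.21 and -0.24 without overlap, and neither passed the threshold (limma adjusted p = 0.154 and 0.106). Their within-array difference changed by 0.02, with overlapping groups. The other 6 ARID genes differed by -0.25 to 0.14. The 4 BRD members had overlapping groups and differed by -0.15 (BRD7, a subunit of the PBAF form of SWI/SNF) to 0.08. Of 27 other subunits of BAF, INO80 and ISWI remodellers, 2 fell, the transcription factor BCL11A (-0.57) and PHF10 (-0.34), and 0 rose; the 7.41% called is below the 8.52% of all genes. PHF10 belongs to the BAF complex of neural progenitors, as does ACTL6A, which differed by -0.15 with overlapping groups (limma adjusted p = 0.322). Of the subunits that replace progenitor ones in neurons, ACTL6B was 7.34, 7.32 and 7.38 against 7.59, 7.51 and 7.56 (0.21, limma adjusted p = 0.0847), and SS18L1 differed by 0.00.

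Histone chaperones, which deliver histones to new DNA, moved both ways. Of 17 measured, NASP and MCM2 fell by 0.46 each, and NAP1L5 (0.40) and NAP1L2 (0.65), nucleosome assembly proteins, rose. The 23.5% called compares with 8.52% of all genes. Of the 17, 16 were at or above the median gene level, where 14.1% of all genes were called.

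**Figure D5:**
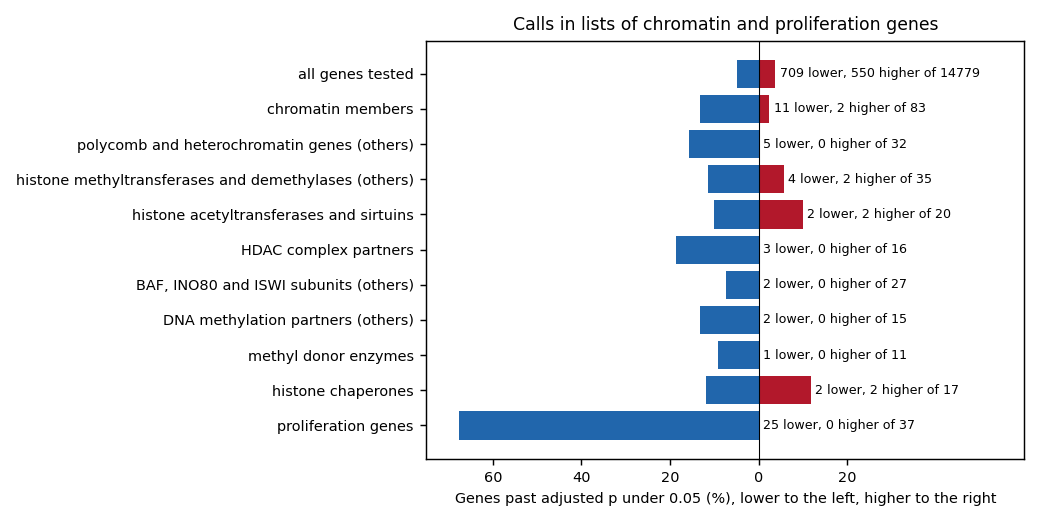
Percentage of each list past adjusted p under 0.05, lower to the left and higher to the right of 0, with counts printed. The chromatin members (11 lower, 2 higher of 83) have a smaller blue share than the proliferation genes (25 lower, 0 higher of 37) and a larger one than all genes (709 lower, 550 higher of 14779).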

How the data were processed

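The deposited table holds a log2 intensity per probe set and array, made by the authors with Partek, per the submitters' processing notes; how the arrays were background-corrected, normalized and summarised is not given in the sources used here. The log base is not stated: log2 is inferred from the highest value, 13.28, which exceeds the natural log of a 16-bit intensity (11.09). Array medians lay between 4.28 and 4.33, and the number of arrays limits the precision. Of 31135 probe sets, 15098 carried 1 symbol in the platform annotation, covering 14779 genes; each gene was read from its probe set with the highest mean, which mattered for 3 members.

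The 2 groups were compared with limma 3.58.1 in R 4.3.3 (lmFit, eBayes, no covariates), with Benjamini-Hochberg adjustment over all genes. The fit was tested on simulated data first. Related members were compared by their within-array difference with an exact two-sided permutation test in scipy 1.17.1. Of 24 listed pairs, 15 were measured. The members, lists, pairs and tests were chosen with earlier results of these data known, so no list is independent evidence. All 13 called members, a set list of well-known members, the highest member of each family without a call, and up to 4 called genes from each other list are named by rule; further genes are named to complete counts or because they stood near the threshold. The alternatives were quantile normalization again, median centring, leaving out the dimmest 40% of genes, averaging probe sets, the replicate letter as a block, a prior variance that follows intensity, array weights, no moderation, all probe sets, an adjusted p under 0.01, and leaving out each array.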

Additional observations from a re-analysis of the deposited data

How the results depend on the processing

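The 11 falls became 17 of 69 members tested once the dimmest 40% of genes were dropped (25% of all genes then called in either direction). They became 21 with a prior variance that follows intensity (16.5% of all genes called). With all probe sets tested they were 6 (5.69% of all genes called). At an adjusted p under 0.01 they were 3 (1.86% of all genes called). The 2 rises became 0 at an adjusted p under 0.01. Leaving out any 1 array left 3 to 5 falls and 1 rise. The median member difference was -0.05 after a further quantile normalization, -0.11 after dropping the dimmest 40% of genes and -0.09 to -0.06 without 1 array. The cause of these shifts was not tested, beyond fewer genes or arrays entering the fits that drop them. Deviations of arrays with the same replicate letter correlated at -0.012 to 0.018 over all genes, and 2 of 6 arrays correlated best with their own letter. No pairing by letter was seen over all genes, but this check cannot exclude one confined to some genes. With the letter as a replicate block, 1 member fell (UHRF1) and 0 rose, and 1.55% of all genes were called. UHRF1 was called under all 16 alternatives, and HDAC1 and DNMT1 under all but the replicate block. No called member changed sign under any alternative. Quantile normalization again lost the call of CBX5; median centring, averaged probe sets and array weights kept all 13. Without moderation DNMT3B, KDM6A and MBD4 lost their calls and CBX1, CHD7 and KMT2D gained one, so 11 fell again. No detection call is given, so whether the 16 members below the median gene level exceed background is unknown.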
